A study of Mus musculus with 5 samples.

Results

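The nuclear genes for subunits of the mitochondrial respiratory chain and ATP synthase were followed in liver RNA from mice given carbon tetrachloride (CCl4), a hepatotoxin that scars the rodent liver on repeated use, with or without givinostat, an inhibitor of histone deacetylases. Members were the genes whose symbols follow the naming of complex I (Nduf with a, b, c, s or v and a digit, and Ndufab1), complex II (Sdha to Sdhd), complex III (Uqcr), complex IV (Cox5 to Cox8) and complex V (Atp5), 82 of the 24808 symbols in each count table. They comprised 38 genes of complex I, 4 of complex II, 8 of complex III, 16 of complex IV and 16 of complex V. The labels describe all 5 animals as C57BL/6 at 16 weeks of age. There were 3 livers with CCl4 alone and 2 with CCl4 and givinostat, so every animal had received CCl4, and no liver without it was analysed here. The labels used here state no dose, schedule or sex. Library totals ran from 18634801 to 21773867 counts.

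The chain oxidises NADH at complex I and succinate at complex II, passes electrons through ubiquinone, complex III and cytochrome c to oxygen at complex IV, and drives ATP synthase, complex V, with the proton gradient. Hepatocytes are rich in mitochondria and use the chain to power urea, glucose and lipid metabolism. The catalytic centres of complexes III and IV and the proton path of complexes I and V include subunits encoded in mitochondrial DNA, which have no row in these tables, so what follows concerns nuclear genes. The symbols Cox4i1 and Cyc1, of complexes IV and III, and the carrier gene Cycs fall outside the naming rule and are given separately below.

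With givinostat, most subunit genes had slightly higher values, but none of them passed the test over all genes. Of the 82 members, 77 had enough counts to test, and 72 of these 77 (93.5%) had a higher fitted value with givinostat, where 46.2% of all 13590 tested genes did. The median log2 fold change was 0.21 over the 77 members and -0.02 over all tested genes. The quasi-likelihood test of edgeR, adjusted by Benjamini-Hochberg over all genes, called 0 members at an adjusted p under 0.05, against 0.00736% of all genes. DESeq2 also called 0, against 0.508% of all genes higher and 0.581% lower, and its smallest adjusted p among members was 0.262 (Cox7a2l). At an unadjusted edgeR p under 0.05, 9 members (11.7%) were higher, against 3.52% of all genes, and 0 were lower, against 3.93%. Both givinostat libraries lay above every CCl4 library for 21 members (27.3%), against 11.7% of all genes, and below every CCl4 library for none of the 77, again against 11.7%. These counts are over genes measured in the same 5 libraries, so the members are not independent of each other.

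The libraries of a group differed from each other, and givinostat replicate 1 stood apart. Givinostat replicate 1 was the highest library for 68 of the 77 members, where it was highest for 20.6% of all genes. CCl4 replicate 1 was the lowest for 54 members, where it was lowest for 25.3% of all genes. Givinostat replicate 2 lay above all 3 CCl4 libraries for 21 members (27.3%), against 19.9% of all genes. The summed level of all 82 members, as CPM (read counts scaled to a common library size, with a correction for composition), was 12300, 13573 and 12986 CPM for CCl4 replicates 1 to 3 in order, and 16657 and 13667 CPM for givinostat replicates 1 and 2. Givinostat replicate 2 thus lay less than 1% above CCl4 replicate 2, and the SD of the givinostat pair (2114) was close to the difference between the group means (12953 and 15162). Without givinostat replicate 1, the median log2 fold change of the members was 0.04. Leaving out either givinostat library leaves 1 in that group, so only medians are given for those settings. Leaving out CCl4 replicate 2 left 3 members higher at an unadjusted p under 0.05, against 9 with all libraries, and 2.35% of all genes. Leaving out CCl4 replicate 1 gave a median of 0.14 and 10 such members, with 7.80% of all genes. Leaving out CCl4 replicate 3 gave 12 members and 3.70% of all genes, and leaving out givinostat replicate 2 gave a median of 0.35. With both CCl4 replicate 1 and givinostat replicate 1 left out, the median was -0.02. That pair was chosen after seeing that they were most often the lowest and the highest library for these same members, so a smaller difference without them follows in part from the choice.

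**Figure D1:**
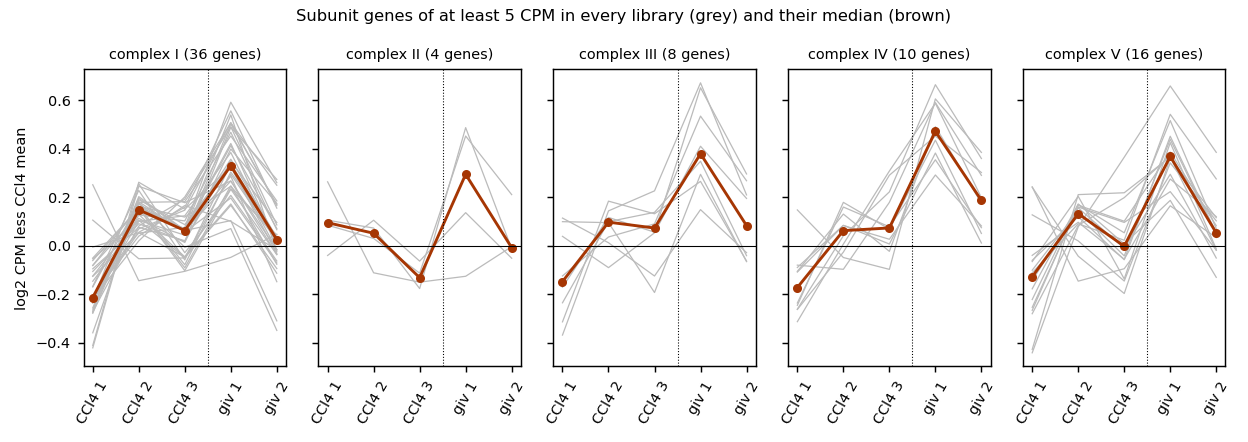
Each grey line joins the values of 1 subunit gene in the 5 libraries (log2 CPM less the mean of the CCl4 libraries), for the 74 tested members of at least 5 CPM in every library, and the brown line joins their medians. Giv 1 and giv 2 are the CCl4+givinostat libraries, the dotted line parts the groups, and giv 1 stands highest in every panel while CCl4 1 stands lowest in complexes I, III, IV and V.

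Transcript length moved with these library differences. Subunit genes have short transcripts, with a median of 838 bases against 2772 over all tested genes with a length (98.9% of them). Among the 1003 other tested genes with transcripts under 1000 bases, the median library deviation from the CCl4 mean was -0.14 in CCl4 replicate 1 and 0.16 in givinostat replicate 1 on the log2 scale, and -0.04 in givinostat replicate 2. Among the 12359 other genes of 1000 bases and over, those medians were 0.01, -0.03 and 0.00. The 48 subunit genes under 1000 bases had medians of -0.23, 0.42 and 0.07 in the same libraries. The 29 subunit genes of 1000 bases and over had medians of -0.05, 0.29 and -0.00. The median log2 fold change was 0.23 for the short and 0.14 for the long subunit genes, and 0.05 and -0.03 for the short and long other genes. With offsets that took out each library's trend with length, the median over the 77 members was 0.15. Marker levels also differed in these libraries. The 5 endothelial markers summed to 89.5 CPM in givinostat replicate 1 and to 136 to 210 CPM in the other libraries, and the 5 macrophage markers summed to 215 CPM in CCl4 replicate 1 and to 300 to 392 CPM elsewhere. The 5 mesothelial markers summed to 6.06 to 15.5 CPM with CCl4 and to 1.13 and 1.80 CPM with givinostat. The 8 hepatocyte markers summed to 96108 to 106726 CPM, in overlapping ranges in both groups. The part of marker levels in the result was not tested, and in bulk liver fewer cells of a type and less RNA per cell cannot be told apart.

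**Figure D2:**
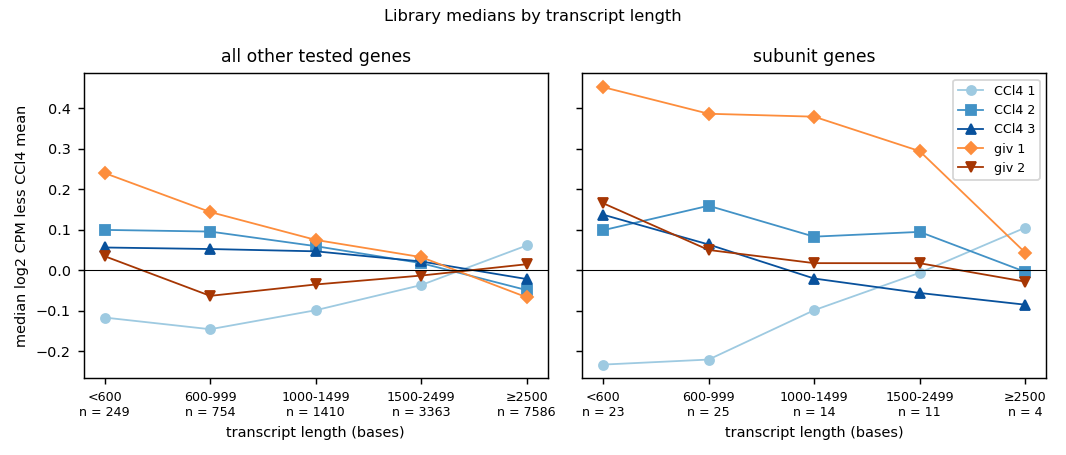
Median log2 CPM less the CCl4 mean in each library, by transcript length, for the other tested genes (left) and the tested subunit genes (right), with the number of genes under each class. Among short transcripts giv 1 lies highest and CCl4 1 lowest in both panels. The 3 longer classes of subunit genes hold fewer than 20 genes each.

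Promoters are shown for 1 member of each complex, the one with the smallest edgeR p that has an entry in the RefSeq promoter table, since these are the members whose values follow. Each window runs from 250 bases before to 50 bases after the annotated start on GRCm38.p6, 5′ to 3′ on the gene's strand, and capitals mark a match to a motif named after the sequences.
Ndufb5 (chr3:32736813-32737112, plus strand): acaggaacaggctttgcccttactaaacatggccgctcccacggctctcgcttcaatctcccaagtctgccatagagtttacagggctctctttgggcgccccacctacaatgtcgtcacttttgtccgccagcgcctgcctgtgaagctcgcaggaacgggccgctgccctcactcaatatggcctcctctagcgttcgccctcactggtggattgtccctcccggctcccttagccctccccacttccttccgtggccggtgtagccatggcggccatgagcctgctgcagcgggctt
Sdhd (chr9:50603800-50604099, minus strand): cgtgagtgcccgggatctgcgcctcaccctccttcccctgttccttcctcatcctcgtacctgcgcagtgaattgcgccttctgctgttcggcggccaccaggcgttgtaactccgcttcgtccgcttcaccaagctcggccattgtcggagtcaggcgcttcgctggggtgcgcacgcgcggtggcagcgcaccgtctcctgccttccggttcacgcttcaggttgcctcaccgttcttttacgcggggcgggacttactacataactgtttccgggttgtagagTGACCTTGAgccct
Uqcr10 (chr11:4704295-4704594, minus strand): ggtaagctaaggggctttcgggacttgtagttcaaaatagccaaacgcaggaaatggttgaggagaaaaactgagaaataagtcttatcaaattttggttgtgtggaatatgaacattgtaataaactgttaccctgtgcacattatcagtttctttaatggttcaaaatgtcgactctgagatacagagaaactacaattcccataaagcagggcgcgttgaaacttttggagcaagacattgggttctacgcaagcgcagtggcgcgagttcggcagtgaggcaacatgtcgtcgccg
Cox7a2l (chr17:83514284-83514583, minus strand): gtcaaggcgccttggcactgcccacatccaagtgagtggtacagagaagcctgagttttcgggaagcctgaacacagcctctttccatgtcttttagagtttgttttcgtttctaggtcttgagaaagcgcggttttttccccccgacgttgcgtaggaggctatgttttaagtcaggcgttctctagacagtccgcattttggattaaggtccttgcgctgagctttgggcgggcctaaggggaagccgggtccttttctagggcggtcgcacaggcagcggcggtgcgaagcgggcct
Atp5g3 (chr2:73911277-73911576, minus strand): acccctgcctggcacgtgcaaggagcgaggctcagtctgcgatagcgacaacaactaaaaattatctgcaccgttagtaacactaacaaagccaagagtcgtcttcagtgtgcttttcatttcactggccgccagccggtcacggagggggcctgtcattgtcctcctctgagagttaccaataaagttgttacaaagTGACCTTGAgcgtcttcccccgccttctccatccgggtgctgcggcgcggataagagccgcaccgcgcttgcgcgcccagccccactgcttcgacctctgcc
The capitals in Sdhd and Atp5g3 mark TCAAGGTCA on the opposite strand, a site of the estrogen-related receptors, which act on genes of oxidative metabolism. The windows of Ndufb5, Uqcr10 and Cox7a2l held none of the motifs searched. Of the 82 members, 67 had a window, and both strands were searched. TCAAGGTCA stood in 2 of these 67 (2.99%) and in 0.466% of 27025 genes with a window. GCATGCGC, the core of the site of NRF1, a factor known for nuclear genes of the chain, stood in 10 (14.9%, against 3.05%), among them Uqcrc1, Cox6a1 and Atp5k. CCGGAAGT, a site of ETS factors such as GABPA, stood in 5 (7.46%, against 4.31%), Uqcrh, Uqcr11 and Cox8a among them. AAGATGGCG, a core of the site of YY1, stood in 7 (10.4%, against 1.64%), of which Ndufs6, Ndufs7, Ndufc1, Ndufs4 and Ndufa9 belong to complex I and Atp5j and Atp5j2 to complex V. No motif searched lies within another. The median log2 fold change was 0.20 over the 23 tested members with at least 1 match and 0.23 over the 41 tested members with a window and no match.

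Complex I, the NADH dehydrogenase, showed small differences spread over many accessory subunits. Ndufa4 and Ndufa4l2 are counted with complex I here by their symbols, although NDUFA4 is now placed with complex IV. Of 37 tested members, 33 had a higher fitted value and 4 a lower one (median log2 fold change 0.16), and 2 were at an unadjusted p under 0.05 (5.41%, against 3.52% of all genes). The summed level was 3357, 4030 and 3852 CPM for CCl4 replicates 1 to 3 in order, and 4727 and 3831 CPM with givinostat. Givinostat replicate 2 therefore lay inside the CCl4 range and givinostat replicate 1 above it. Without givinostat replicate 1 the median was 0.02, and without CCl4 replicate 1 it was 0.10.

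Within complex I, the leading genes encode accessory subunits of the membrane arm. Ndufb9 (chromosome 15, 58933756 to 58939488, plus strand, GRCm38) measured 154, 174 and 177 CPM in the CCl4 livers and 253 and 201 CPM in the givinostat livers, so that both givinostat libraries lay above all CCl4 libraries. The log2 fold change of Ndufb9 was 0.43 ± 0.16 (SE; edgeR adjusted p = 0.556; exact two-sided permutation p = 0.1, the smallest that 10 assignments of 5 libraries allow). Part of Ndufb9 (19.5% of its exonic bases) overlaps another gene model on the same strand, and reads there cannot be assigned with certainty. Ndufb5, whose promoter is printed above, measured 70.5, 80.8 and 76.7 CPM in the CCl4 livers and 106 and 91.7 CPM in the givinostat livers (log2 fold change 0.38 ± 0.15, SE; edgeR adjusted p = 0.594). Its groups did not overlap either. Ndufa1, which is X-linked and needed for assembly of the membrane arm, was at 65.3, 77.0 and 87.3 CPM against 108 and 90.3 CPM (0.37 ± 0.17, SE), and Ndufb11 at 125, 149 and 142 CPM against 196 and 156 CPM (0.34 ± 0.16, SE). In both, givinostat replicate 2 stood only just above the highest CCl4 library. Ndufb9, Ndufb5, Ndufa1 and Ndufb11 had log2 fold changes of 0.26, 0.27, 0.24 and 0.17 without givinostat replicate 1.

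The catalytic core of the matrix arm, which carries the flavin and the iron-sulfur clusters, lay nearer to 0 than the membrane arm. This grouping by structure, and those in the other complexes, were drawn up after the values were seen and carry no test. Fold changes of the 7 core genes centred on a median of 0.10 (log2), from -0.13 to 0.18. For none of the 7 did both givinostat libraries lie above all CCl4 libraries, as they did for 11.7% of all genes. Ndufs1, the largest subunit of the matrix arm, was at 103, 78.0 and 80.1 CPM against 83.4 and 89.1 CPM, with CCl4 replicate 1 the highest. The 12 Ndufb and Ndufc genes of the membrane arm were all higher in the fit, with a median of 0.23 and a range of 0.09 to 0.43. Their transcripts were shorter, with a median of 718 bases against 1623 in the core. The other 16 tested accessory genes, without the Ndufa4 pair, had a median of 0.18. Among these 16, Ndufa8 was the lower one (-0.10), and Ndufab1, the mitochondrial acyl carrier protein, was at 0.03. Ndufs5 was listed at 0 counts in all 5 libraries although it encodes a regular subunit, and no level is given for it. In its transcript, 41.2% of the 50-base stretches also occur in another annotated gene. Atp5g2 of complex V, with 100% of its stretches shared, had 1493 to 2068 counts. Why Ndufs5 stood at 0 was not tested.

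Complex II, the succinate dehydrogenase shared with the citric acid cycle, is encoded wholly in the nucleus, and its 4 genes differed among themselves. The summed level was 962, 877 and 802 CPM with CCl4 and 1001 and 898 CPM with givinostat, with overlapping groups. None of the 4 was at an unadjusted p under 0.05, against 3.52% of all genes higher and 3.93% lower. Sdha, the flavoprotein, measured 407, 314 and 306 CPM in the CCl4 livers and 311 and 338 CPM in the givinostat livers (log2 fold change -0.08 ± 0.17, SE), and CCl4 replicate 1 was the highest library. Sdhb, the iron-sulfur subunit, was at 165, 162 and 136 CPM against 215 and 152 CPM (0.25 ± 0.18, SE), which rested on givinostat replicate 1, since the value was -0.02 without it. Sdhc, a membrane anchor, was at 179, 198 and 176 CPM against 202 and 177 CPM (0.04 ± 0.14, SE). Sdhd, the other anchor, was the only gene of the 4 without overlap (11.7% of all genes had both givinostat libraries above). It measured 211, 203 and 184 CPM in the CCl4 livers and 272 and 230 CPM in the givinostat livers (0.33 ± 0.15, SE; edgeR adjusted p = 0.678; exact permutation p = 0.1), and its log2 fold change was 0.21 to 0.45 with any 1 library left out. Without CCl4 replicate 1, Sdha was at 0.07, and without givinostat replicate 1, Sdhc was at -0.05 and the median of the complex at -0.02, against 0.15 with all libraries.

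Complex III, the cytochrome bc1 complex, had 8 members, all tested and all with a higher fitted value (median log2 fold change 0.23). The summed level was 1603, 1799 and 1781 CPM with CCl4 and 2259 and 1805 CPM with givinostat. Givinostat replicate 2 was within 1% of CCl4 replicate 2. Uqcr10 and Uqcrh were at an unadjusted p under 0.05, 25.0% of 8 genes, against 3.52% of all genes higher. Uqcr10, a small subunit of the membrane part (chromosome 11, 4701973 to 4704342, minus strand), was at 109, 133 and 127 CPM against 192 and 150 CPM, which gave 0.48 ± 0.17 on the log2 scale (SE; edgeR adjusted p = 0.525; exact permutation p = 0.1). Uqcrh, the hinge protein that helps cytochrome c to bind, was at 146, 163 and 169 CPM against 230 and 192 CPM (0.40 ± 0.15, SE; edgeR adjusted p = 0.570). Uqcrfs1, the Rieske iron-sulfur protein, was at 264, 241 and 267 CPM against 342 and 294 CPM (0.30 ± 0.14, SE). The groups did not overlap for any of Uqcr10, Uqcrh and Uqcrfs1, 37.5% of the 8 genes against 11.7% of all genes. Uqcr11 was at 111, 159 and 168 CPM against 229 and 166 CPM (0.44 ± 0.22, SE), with givinostat replicate 2 inside the CCl4 range.

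The 5 small subunits of complex III had a median of 0.40, and the core proteins Uqcrc1 and Uqcrc2 with Uqcrfs1 had a median of 0.12. Uqcrc1 measured 246, 245 and 201 CPM in the CCl4 livers and 281 and 219 CPM in the givinostat livers, and Uqcrc2 measured 224, 208 and 189 CPM against 229 and 202 CPM, so both overlapped. Transcripts of the small subunits had a median length of 445 bases against 1653 in the other 3. Uqcrq, a small subunit near the quinone site, had the highest level of the complex per kilobase of transcript, at 1201 RPKM (CPM per kilobase) with CCl4 and 1338 with givinostat. Its fold change depended on givinostat replicate 1, with 410, 517 and 531 CPM against 615 and 469 CPM, and was -0.05 (log2) without that library. Without givinostat replicate 1, the log2 fold changes of Uqcr10, Uqcrh, Uqcrfs1 and Uqcr11 were 0.29, 0.27, 0.19 and 0.19, and the median of the complex was 0.08.

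Complex IV, the cytochrome c oxidase, had the highest median of the 5 complexes in all libraries together. All 12 tested members had a higher fitted value (median log2 fold change 0.35), 4 were at an unadjusted p under 0.05 (33.3%, against 3.52% of all genes), and for 6 both givinostat libraries lay above all CCl4 libraries (against 11.7% of all genes). The summed level was 1765, 2061 and 2153 CPM with CCl4 and 2739 and 2248 CPM with givinostat, so both givinostat libraries lay above every CCl4 library. That was also so in complexes III and V, where givinostat replicate 2 exceeded the highest CCl4 library by less, 1805 against 1799 CPM and 4884 against 4806 CPM. Leaving out CCl4 replicate 1 gave a complex IV median of 0.24, leaving out givinostat replicate 1 gave 0.23, and length offsets gave 0.25. Its count at an unadjusted p under 0.05 was 1 without CCl4 replicate 2. Whether complex IV differed from the other complexes was not tested.

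Cox7a2l had the smallest p of all 77 tested members. It encodes a relative of the COX7A subunits studied for a part in joining complexes III and IV into supercomplexes, and C57BL/6 mice are known to carry a short allele described as lacking this function (chromosome 17, 83501918 to 83517330, minus strand). Cox7a2l measured 115, 101 and 97.2 CPM in the CCl4 livers and 158 and 136 CPM in the givinostat livers, averaging 104 ± 9.57 (SD, n = 3) and 147 ± 15.9 CPM (SD, n = 2). The log2 fold change was 0.49 ± 0.15 (SE; edgeR adjusted p = 0.466; exact permutation p = 0.1). In contrast to most members, CCl4 replicate 1 was the highest of its group here, and the log2 fold change was 0.45 with length offsets. With 1 library left out, its log2 fold change was 0.38 to 0.60. Cox7b, an X-linked subunit of the membrane part, was at 110, 136 and 154 CPM against 210 and 170 CPM (0.51 ± 0.18, SE; edgeR adjusted p = 0.551). Cox6b1, which faces the intermembrane space where the oxidase pairs up, was at 149, 147 and 179 CPM against 238 and 193 CPM (0.44 ± 0.16, SE; edgeR adjusted p = 0.558). Neither overlapped between groups, and without givinostat replicate 1 their log2 fold changes were 0.35 and 0.29. Of the other common forms, Cox8a and Cox7c did not overlap between groups, while Cox6c, Cox5b, Cox5a, Cox7a2 and Cox6a1 did, with log2 fold changes from 0.19 (Cox6a1) to 0.38 (Cox6c). For Cox7c 53.0%, and for Cox7a2l 19.8%, of the 50-base stretches of the transcript also occur elsewhere among annotated genes.

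**Figure D3:**
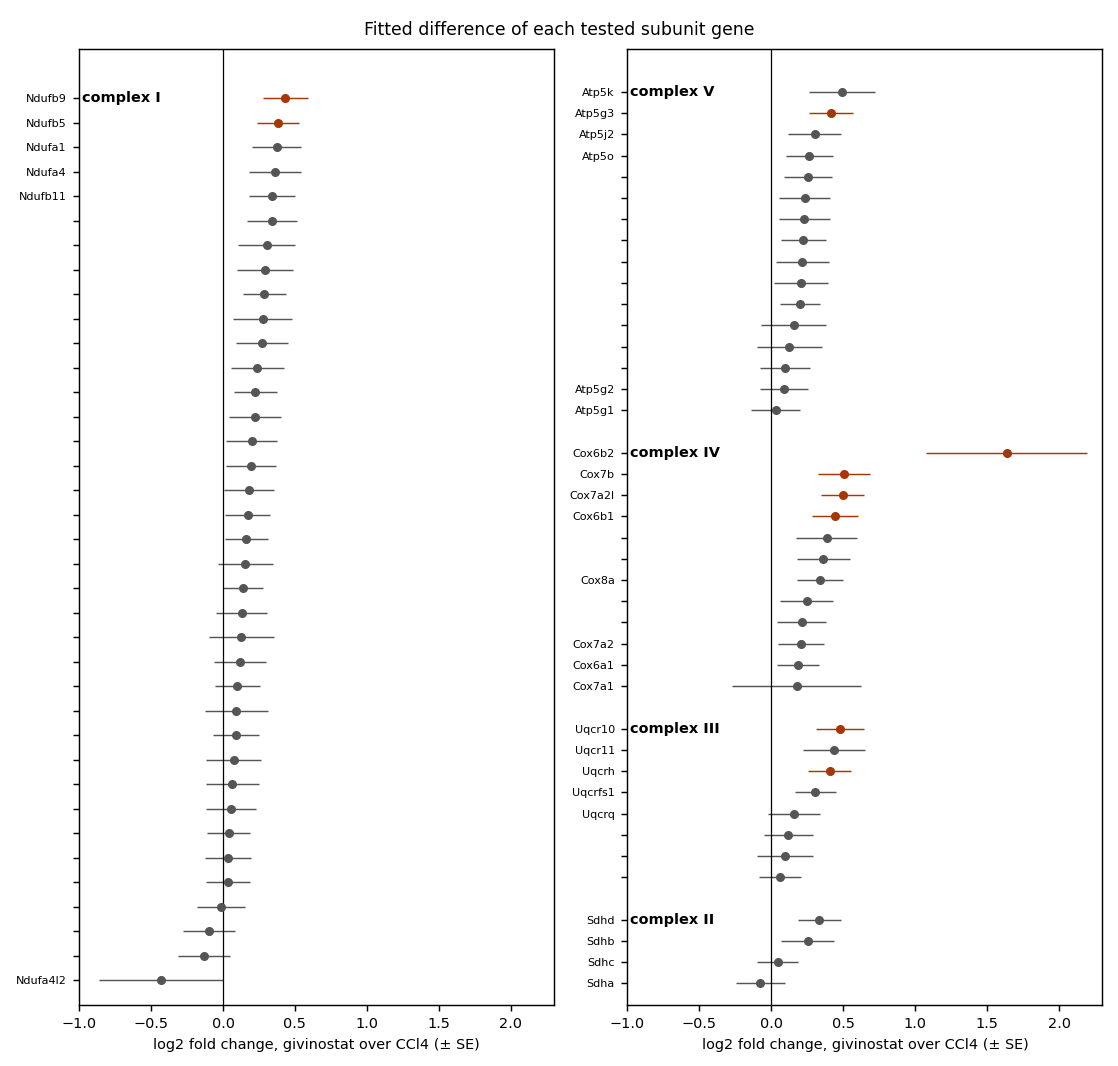
Fitted log2 fold change (givinostat over CCl4) with its standard error for the 77 tested members, complex I on the left and complexes II to V on the right, with names for the members chosen by the naming rule. Brown marks the 9 genes at an unadjusted p under 0.05, and 72 of the 77 points lie right of 0, most by less than 0.5.

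Several complex IV subunits have alternative forms used by particular tissues. For COX6A, COX6B and COX7A, whose rare forms had counts, the liver libraries held nearly pure common forms. Cox6a1 was at 607 to 801 RPKM over the 5 libraries, while Cox6a2, the heart and muscle form, had 1 to 3 counts a library. Cox7a2 was at 193 to 267 RPKM and Cox7a1, the other heart and muscle form, at 1.57 to 2.78 RPKM, from 13 to 23 counts, or 0.743 to 1.33% of the pair. Cox8b, the muscle and brown fat form, and Cox7b2 and Cox8c, known from testis, were listed at 0 in all 5 libraries. Ndufs5, the assembly factors Sco2 and Pet117 and the globin genes Hba-a1, Hba-a2, Hbb-bs and Hbb-bt were also listed at 0 throughout, so a 0 in these tables may mean a symbol that was not counted, and no limit is drawn from it. Cox8a stood at 403 to 609 RPKM. The 12 muscle markers summed to 0.835 to 2.31 CPM, with Ckm, Mb, Myh1 and Myh4 listed at 0 throughout, and Ucp1, the defining gene of brown fat, had 1 count in 1 library.

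Cox6b2, the form of COX6B known from testis, was the exception among the rare forms. It had 10, 14 and 36 counts with CCl4 and 81 and 50 with givinostat, or 0.474, 0.674 and 1.87 CPM against 3.98 and 2.24 CPM. Both givinostat libraries lay above all CCl4 libraries, though givinostat replicate 2 was close to CCl4 replicate 3. The log2 fold change was 1.63 ± 0.56 (SE; edgeR adjusted p = 0.525; DESeq2 adjusted p = 0.284; exact permutation p = 0.2). It was 1.17 without givinostat replicate 1 and 2.43 without CCl4 replicate 3, with edgeR adjusted p of 0.187 to 1.00 over the libraries left out. With the replicate number as a block, CCl4 replicate 3 stood alone in its block and did not enter the difference. That library held the highest CCl4 value, nothing in the labels supports the pairing, and the fit called Cox6b2 (2.38, edgeR adjusted p = 0.000934). Its share of COX6B transcripts per kilobase was 0.354, 0.508 and 1.16% with CCl4 and 1.84 and 1.28% with givinostat, so Cox6b1 made up over 98% in every library. Cox6b2 lies on chromosome 7, 4751792 to 4753094, minus strand, and none of its 50-base stretches occurs in another annotated gene. Among the NDUFA4 genes, Ndufa4 stood at 401 to 684 RPKM and Ndufa4l2, a form known for its induction in low oxygen, at 0.863 to 1.56 RPKM. NDUFA4 was named with complex I but is now placed with complex IV, and both genes enter the complex I values given above. Ndufa4 measured 245, 295 and 317 CPM in the CCl4 livers and 417 and 316 CPM in the givinostat livers (0.36 ± 0.18, SE), with givinostat replicate 2 just below CCl4 replicate 3, and its log2 fold change was 0.15 without givinostat replicate 1 and 0.55 without givinostat replicate 2. Ndufa4l2 had 17, 30 and 28 counts against 18 and 21 (-0.43 ± 0.43, SE), and its groups overlapped.

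**Figure D4:**
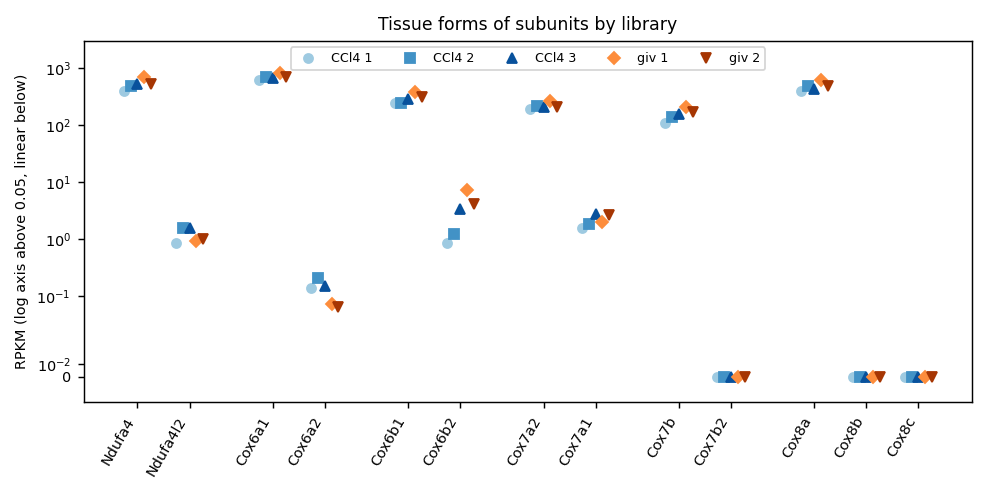
Level per kilobase of transcript (RPKM) of common and tissue-restricted forms in each of the 5 libraries, on an axis that is logarithmic above 0.05 and linear below. Over all libraries the common form lies 87.7 times (COX6B) to 5381 times (COX6A) above a detected rare form, and Cox6b2 is the rare form with both givinostat libraries on top.

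Complex V, the ATP synthase, had 16 members, all tested and all with a higher fitted value (median log2 fold change 0.22). The summed level was 4612, 4806 and 4399 CPM with CCl4 and 5932 and 4884 CPM with givinostat, the largest sum of the 5 complexes. At an unadjusted p under 0.05 there was 1 gene (6.25%, against 3.52% of all genes), and 3 members (18.8%, against 11.7%) did not overlap between groups. That 1 gene was Atp5g3, one of 3 genes for the same ring subunit c (chromosome 2, 73908447 to 73911326, minus strand). Atp5g3 measured 416, 479 and 457 CPM in the CCl4 livers and 654 and 544 CPM in the givinostat livers (0.41 ± 0.15, SE; edgeR adjusted p = 0.561; exact permutation p = 0.1). The other c-ring genes differed less. Atp5g1 was at 182, 232 and 207 CPM against 235 and 189 CPM (0.03 ± 0.17, SE), and Atp5g2 at 98.0, 74.9 and 77.6 CPM against 92.9 and 84.8 CPM (0.09 ± 0.17, SE), and both overlapped. Reads of Atp5g2 are uncertain, since every 50-base stretch of its annotated transcript also occurs in other gene models, whereas Atp5g3 shares none.

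The 5 genes of the F1 head, where ATP is made, lay within a narrow range, from 0.16 (Atp5e) to 0.25 (Atp5c1) on the log2 scale. Atp5b, the catalytic beta subunit, had the highest CPM of any member, at 1350, 1108 and 996 CPM with CCl4 and 1466 and 1237 CPM with givinostat (0.23 ± 0.18, SE). Atp5a1, the alpha subunit, was at 917, 851 and 759 CPM against 1064 and 901 CPM (0.22 ± 0.16, SE). In both, CCl4 replicate 1 was the highest CCl4 library and overlapped with givinostat replicate 2. The 4 genes of the peripheral stalk had a median of 0.21, and among them Atp5o was at 148, 168 and 149 CPM against 212 and 160 CPM (0.26 ± 0.16, SE). Of the small membrane subunits, Atp5k was at 30.5, 43.7 and 53.3 CPM against 65.3 and 54.1 CPM (0.49 ± 0.23, SE), with givinostat replicate 2 barely above CCl4 replicate 3, and Atp5j2 at 129, 169 and 156 CPM against 215 and 158 CPM (0.30 ± 0.19, SE), with overlap. Atp5s, the coupling factor B gene, stood far below the rest at 6.02 to 8.16 CPM. Atp5g3, Atp5k, Atp5j2 and Atp5o had lowest log2 fold changes of 0.27, 0.30, 0.06 and 0.05 with 1 library left out, which was CCl4 replicate 1 for Atp5k and givinostat replicate 1 for the others. The median of the complex was 0.05 without givinostat replicate 1.

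**Figure D5:**
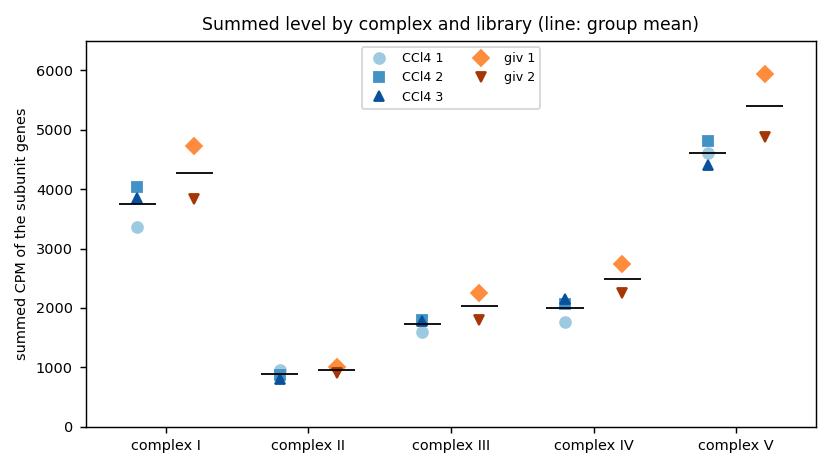
Summed CPM of the member genes of each complex in each library, with a black line at each group mean and giv 1 and giv 2 as the CCl4+givinostat libraries. Giv 1 is the highest point in all 5 complexes, and giv 2 lies within the spread of the CCl4 libraries for complexes I and II and close to their top for complexes III to V.

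Among chain genes outside the naming rule, the tested subunit genes and Cycs had higher fitted values, and the rest of the list was mixed. Cox4i1, the common COX4 form, measured 489, 530 and 604 CPM in the CCl4 livers and 736 and 609 CPM in the givinostat livers (0.32 ± 0.16, SE; edgeR adjusted p = 0.770), with givinostat replicate 2 just above CCl4 replicate 3. Cox4i2, the lung form, was at 0 to 0.337 CPM. Cyc1, the cytochrome c1 of complex III, was at 196, 206 and 165 CPM against 256 and 200 CPM (0.27 ± 0.17, SE), with overlap. Cycs, cytochrome c itself, was at 157, 194 and 197 CPM against 233 and 210 CPM (0.28 ± 0.16, SE), without overlap. The further subunit genes Usmg5 (0.26 ± 0.20, SE) and 2010107E04Rik (0.26 ± 0.21, SE), named after their values were seen, overlapped between groups. Of the 18 tested genes in this list of further subunits, carriers and ubiquinone synthesis enzymes, 11 were higher in the fit (against 46.2% of all genes), with a median log2 fold change of 0.17, and 1 was higher at an unadjusted p under 0.05 (against 3.52%). Etfa, of the electron transfer flavoprotein, was at -0.01 and Coq2, of ubiquinone synthesis, at -0.17, both chosen after their values were seen. The 1 gene was Etfdh, which passes electrons from fatty acid oxidation to ubiquinone, at 358, 258 and 274 CPM against 399 and 384 CPM (0.40 ± 0.17, SE).

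Assembly factors, the proteins that build the complexes but do not stay in them, had median log2 fold changes nearer to 0 than the subunits they serve. Of 16 tested factors for complex I, 10 were higher (median log2 fold change 0.09), of 4 for complex II 1 was higher (-0.03), of 6 for complex III 4 were higher (0.16), of 23 for complex IV 13 were higher (0.04), and of 4 for complex V, the inhibitor Atpif1 included, 1 was higher (-0.12). Over all genes, 46.2% had a higher fitted value. None of these factors was at an unadjusted p under 0.05, against 3.52% of all genes higher and 3.93% lower. Both givinostat libraries lay above every CCl4 library for 5 of the 16 complex I factors and below for 2. These counts were 1 and 0 of 6 for complex III, 1 and 2 of 23 for complex IV, and 0 and 1 of 4 for complex V. They were 0 and 0 of 4 for complex II, against 11.7% of all genes in each direction. Those with the smallest p were Ndufaf5 (-0.55 ± 0.30) and Dmac2 (0.30 ± 0.16, SE) for complex I, Sdhaf1 (0.29 ± 0.25) for complex II, Uqcc3 (0.31 ± 0.19) for complex III, Cox10 (0.29 ± 0.16), a heme A synthesis enzyme, for complex IV and Atpif1 (-0.26 ± 0.21, SE) for complex V. The difference between subunits and assembly factors was not tested.

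Among 19 tested regulators of mitochondrial biogenesis, 14 were higher (median 0.14), where 46.2% of all genes were, and 2 were higher at an unadjusted p under 0.05, where 3.52% of all genes were. The PGC-1 family coactivators, added after their values were seen, had lower fitted values within overlapping groups. Ppargc1a was at 27.7, 14.5 and 12.8 CPM with CCl4 and 17.2 and 16.2 CPM with givinostat (-0.14 ± 0.32, SE). Its lower value rested on CCl4 replicate 1, since both givinostat libraries lay above the other CCl4 libraries. Ppargc1b was at 2.42, 2.89 and 1.25 CPM against 1.08 and 1.80 CPM (-0.60 ± 0.45, SE). Pprc1 was at 34.4, 26.3 and 22.4 CPM against 18.9 and 26.3 CPM (-0.29 ± 0.23, SE). Tfb1m, a methyltransferase for mitochondrial ribosomal RNA, measured 3.6, 5.73 and 4.31 CPM in the CCl4 livers and 8.45 and 6.51 CPM in the givinostat livers (0.72 ± 0.27, SE; edgeR adjusted p = 0.586). Ppara, the fatty acid-sensing nuclear receptor, was at 225, 160 and 130 CPM against 247 and 242 CPM (0.51 ± 0.22, SE; edgeR adjusted p = 0.668). Esrra, the estrogen-related receptor alpha, was at 45.6, 45.7 and 50.7 CPM against 63.5 and 53.7 CPM (0.31 ± 0.15, SE; edgeR adjusted p = 0.751). For Tfb1m, Ppara and Esrra both givinostat libraries lay above the CCl4 libraries, as for 11.7% of all genes, with givinostat replicate 1 the higher. Of 14 citric acid cycle enzymes, 10 were higher (median 0.09, against 46.2% of all genes higher), and 2 were higher at an unadjusted p under 0.05, against 3.52% of all genes. Suclg1, a subunit of succinyl-CoA ligase and one of these 2, was at 156, 163 and 165 CPM against 271 and 173 CPM (0.46 ± 0.19, SE), so most of its difference lay in givinostat replicate 1.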

How the data were processed

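RNA was extracted from frozen liver and sequenced from Illumina TruSeq libraries, according to the labels' protocols. The deposited values are raw read counts per gene symbol, in a file for each library. Bowtie 0.12.2 and the builds mm8 and mm10 come from the submitters' processing notes. Counting program, annotation and strand setting are unknown from the labels used here. Rows with a date in place of a symbol (26 a library, 0.144 to 0.169% of counts) were left out. The series design describes separate mice without further detail, so p-values measure the spread between these libraries.

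Members and lists were chosen with earlier results of these data known. EdgeR 4.0.16 (R 4.3.3) was run with filterByExpr, TMM scaling and a quasi-likelihood test with treatment as its only term, which left 3 residual degrees of freedom for 13590 genes. SEs were derived from the F statistic as |log2 fold change| / sqrt(F). RPKM divides CPM by the length of 1 GENCODE M21 transcript a gene. In simulated counts of this comparison (13394 genes), 44.3% of 97 genes changed 2-fold and 80.8% of 99 changed 4-fold were called. The genes named were the 4 with the smallest p in each complex, isoform sets, the highest RPKM of each complex and up to 3 of each pathway list. Ndufs1, Ndufa8, Ndufab1, Uqcrc1, Uqcrc2, Cox5a, Cox5b, Cox6c, Cox7c, Atp5a1, Atp5b, Atp5c1, Atp5e and Atp5s were added after their values were seen. Results for some genes are not reported here. Alternatives were DESeq2 1.42.0, RLE scaling, other filters, a replicate block and libraries left out. Offsets for length and GC content, and leaving out CCl4 replicate 1 with givinostat replicate 1, were chosen after seeing the data.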

Additional observations from a re-analysis of the deposited data

How the results depend on the processing

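With 3 and 2 libraries, differences as small as those of most subunit genes were hard to detect, and leaving out a givinostat library leaves 1, which is then assumed to vary like the CCl4 group. Of 456 alternative values of the summaries, 408 stayed within 1.5 times the count or within 1 SD of the replicates of the value with all libraries. Counts called, and counts lower at an unadjusted p under 0.05, were 0 with all libraries and mostly stayed 0. They enter this tally as unchanged, so it does not measure how stable the medians and other counts were. Of 377 alternative values for single genes, 362 kept their sign and their side of the threshold, though their size could differ. RLE scaling, DESeq2, the stricter filter and GC offsets moved no summary past 1.5 times or 1 SD. Without a low-count filter 2 members of complex V were higher at an unadjusted p under 0.05, and the mean of log2 CPM in place of the sum gave a ratio of 1.35 for complex IV.

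With 1 library left out, the median log2 fold change ran from 0.04 to 0.35 over all tested members, 0.02 to 0.30 in complex I, -0.017 to 0.29 in complex II, 0.08 to 0.37 in complex III, 0.23 to 0.46 in complex IV and 0.05 to 0.35 in complex V. Members higher at an unadjusted p under 0.05 numbered 0 to 13 in all, 0 to 4 in complex I, 0 to 1 in complex II, 0 to 3 in complex III, 0 to 6 in complex IV and 0 to 1 in complex V, and those lower numbered 0. The ratio of summed CPM ran from 1.06 to 1.29 over all members, 1.02 to 1.26 in complex I, 1.05 to 1.31 in complex III, 1.13 to 1.37 in complex IV and 1.06 to 1.29 in complex V. Single genes that changed sign ran from -0.14 to 0.18 (Atp5g1), -0.038 to 0.45 (Cox7a1), -0.14 to 0.07 (Sdha), -0.017 to 0.48 (Sdhb), -0.05 to 0.13 (Sdhc) and -0.05 to 0.34 (Uqcrq). Cox7a2 at 0.01 to 0.38, Atp5j2 at 0.06 to 0.51 and Atp5g2 at 0.02 to 0.22 kept their sign.

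Without both CCl4 replicate 1 and givinostat replicate 1, a pair chosen for its extreme values in these members, the medians were -0.021 over all tested members, -0.079 in complex I, 0.083 in complex II, 0.028 in complex III, 0.14 in complex IV and -0.022 in complex V. That setting leaves 1 givinostat library, so no count at an unadjusted p is drawn from it. The ratios of summed CPM were 1.03 over all members, 0.974 in complex I, 1.07 in complex II, 1.01 in complex III, 1.07 in complex IV and 1.06 in complex V. Atp5g1 was then at -0.22, Atp5j2 at -0.040, Cox7a2 at -0.032, Sdha at 0.13, Sdhc at -0.072 and Uqcrq at -0.16, and Atp5g2 was at -0.054 with length offsets. Why these values changed was not tested further.

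The labels do not say whether equal replicate numbers share a batch. The deviations of same-numbered libraries correlated at -0.148 and -0.0753, but 2 pairs cannot show whether the libraries were paired. With the replicate number as a block, 3 members were higher at an unadjusted p under 0.05, against 3.12% of all genes. They numbered 0 in complexes I and III and 2 in complex IV. EdgeR then called 1 member, Cox6b2 of complex IV, at 2.38 on the log2 scale (adjusted p = 0.000934). CCl4 replicate 3 stood alone in its block and did not enter that difference. Of all 13590 tested genes, the block fit called 68 higher and 77 lower.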
